A study of Sus scrofa with 18 samples.

Results

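The blood cell miRNA genes are 7 pig genes, ssc-mir-223, MIR142, ssc-mir-451, ssc-mir-150-1, ssc-mir-24-1, ssc-mir-23a and ssc-mir-195, whose rows of the count table were chosen by name and gene type. They are 7 of 388 miRNA genes in a table of 31908 genes. RNA was taken from venous serum of female Danish Landrace pigs aged 5 months. Each of 6 pigs was bled under basal conditions (Baseline), after cardiogenic shock (CS) had been induced by microspheres injected into the left coronary artery system, and during support by a percutaneous ventricular assist device (pVAD, Impella CP) while the shock lasted. Every pig was anesthetized and received the microspheres before the CS and pVAD samples were taken, so time under anesthesia and the condition cannot be told apart. The libraries used here number 17 of 18, with 6 at Baseline, 5 in CS and 6 on pVAD. CS replicate 6 was set aside by the authors and is not used here either. It held 2484066 reads and 0 reads of any miRNA gene, which allows up to 1.21 CPM for each.

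A miRNA gene is transcribed as a long primary transcript, from which DROSHA with DGCR8 cuts a hairpin and DICER1 then cuts the mature miRNA, which guides an Argonaute protein to messenger RNAs and lowers their output. Blood cells hold large amounts of a few such miRNAs, and these reach serum in vesicles, in Argonaute complexes and from cells that break during clotting or sampling. miR-223 is a miRNA of neutrophils and monocytes, miR-142 is made in nearly all cells of the hematopoietic lineage, miR-451 is a miRNA of red cells that is cut by Argonaute 2 in place of DICER1, and miR-150 is a miRNA of mature lymphocytes. miR-23a and miR-24 come from a shared primary transcript with miR-27a and act in myeloid cells and muscle. miR-195 belongs to the miR-16 family and acts on cell cycle genes. These roles are known mainly from human and mouse.

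Every value here is a count of reads on the annotated gene, from a low-input library made from total RNA, so a mature miRNA, its hairpin and a primary transcript could not be told apart. In serum, fewer cells or vesicles that release a miRNA and less of it per cell cannot be told apart either. The libraries held 18229243 to 71488943 reads, and of 682964229 reads in all, 32137 lay on miRNA genes (0.0047%). A single gene, ssc-mir-6782, took 25861 of these, 80.5% (95% Wilson interval, 80.0–80.9%). The 7 blood cell genes took 1520 of the other 6276, 24.2% (95% Wilson interval, 23.2–25.3%). Such intervals cover counting error only. Levels are given as CPM, reads scaled to a library of 1000000 reads after correction by TMM factors. These factors were lowest in CS replicate 4 (0.307) and pVAD replicate 6 (0.454), where the 4 most abundant genes held 71.5% and 57.6% of reads, and they raise every CPM of those libraries.

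Of the 7 genes, 6 were among the most read miRNA genes once ssc-mir-6782 was put aside. ssc-mir-223 led with 482 reads over the 17 libraries, followed by MIR142 with 253, ssc-mir-24-1 with 218, ssc-mir-195 with 195 and ssc-mir-23a with 181. ssc-mir-150-1 stood at rank 9 with 139 reads, in a row that the table also names ssc-mir-150-2, so the copies could not be separated. ssc-mir-451 stood at rank 40 with 52 reads. This order is one of reads, not of levels per length. ssc-mir-223 was the only member with a read in each of the 17 libraries, followed by ssc-mir-24-1 and ssc-mir-23a in 16, MIR142 in 15, ssc-mir-195 in 14, ssc-mir-150-1 in 13 and ssc-mir-451 in 11. Counts were low throughout: ssc-mir-223 had fewer than 10 reads in 5 libraries and ssc-mir-451 in 15.

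**Figure D1:**
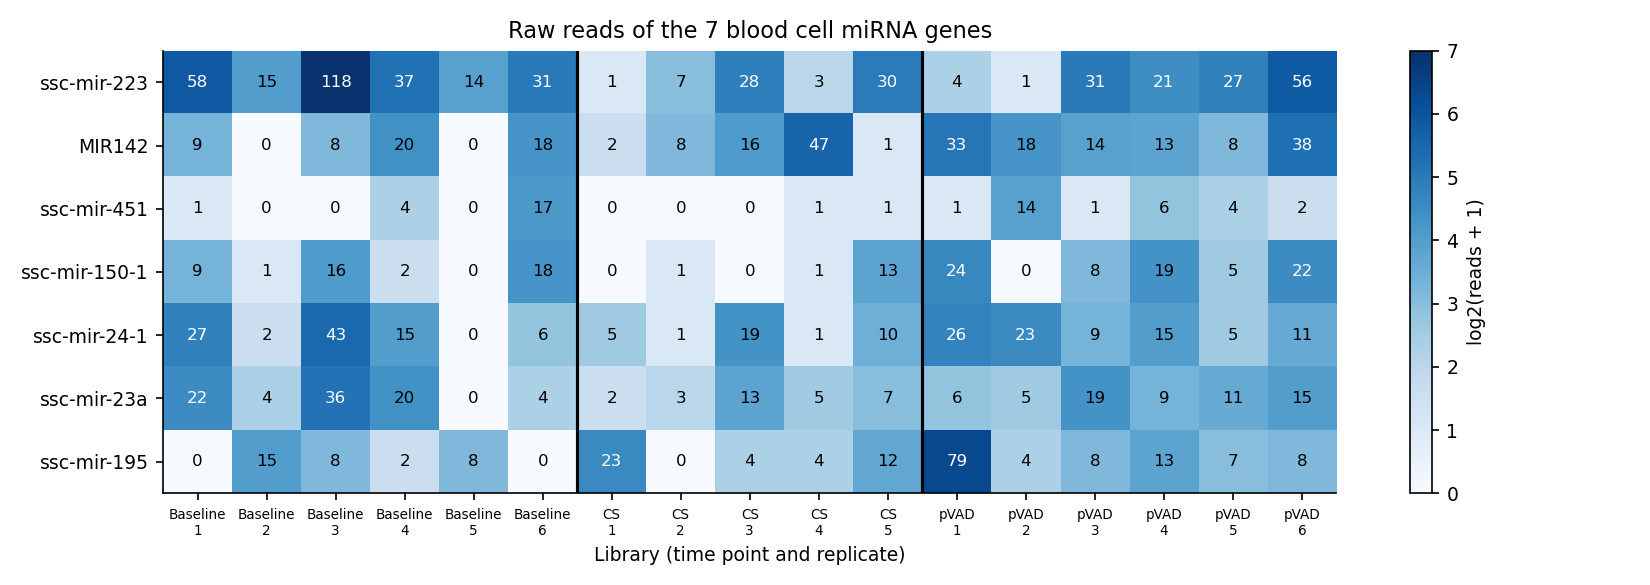
Raw reads of each of the 7 genes (rows) in each of the 17 libraries (columns, by time point and replicate), printed in the cell and shaded by log2(reads + 1). ssc-mir-223 is darkest at Baseline, where it has 14 to 118 reads, and ssc-mir-451 has 0 or 1 read in all 5 CS libraries.

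Whether serum in shock held less or more of these genes than serum of the same pigs at Baseline was asked first. The data showed ssc-mir-223 lower in CS than at Baseline in each of the 5 pigs with both libraries, with 69 reads over the CS libraries against 273 at Baseline. ssc-mir-451 had 2 reads in CS and 22 at Baseline, 17 of which came from a single library. ssc-mir-24-1, ssc-mir-23a and ssc-mir-150-1 also averaged lower in CS, while MIR142 and ssc-mir-195 did not, and none of the 7 was called by the edgeR quasi-likelihood test, for which a fold change over 1.5 and an unadjusted p under 0.05 were needed. Of the 26146 genes tested, 2.82% were called, so that 0 of 7 is near the background. The edgeR adjusted p was 1 for each member.

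ssc-mir-223 (ENSSSCG00000019401), the myeloid miRNA gene, had 1, 7, 28, 3 and 30 reads in CS replicates 1 to 5, against 58, 15, 118, 37, 14 and 31 in Baseline replicates 1 to 6. Its level averaged 0.311 ± 0.285 CPM in CS (SD, n = 5) and 1.15 ± 0.628 CPM at Baseline (SD, n = 6). The highest CS library (replicate 3, 0.679 CPM) lay above the lowest Baseline library (replicate 2, 0.428 CPM), as did CS replicate 5 at 0.548 CPM, while the 3 other CS libraries lay below every Baseline library. In edgeR the log2 fold change was -1.87 (SE 0.98, adjusted p = 1). The two-sided exact permutation test of the CPM gave p = 0.0152, adjusted p = 1 over all genes, and 2.68% of all genes reached an exact p below 0.05 in this comparison. Within pigs the exact test over sign changes gave p = 0.0625, the smallest that 5 pairs allow. With each library of the 2 time points left out in turn, the exact p stayed between 0.00794 and 0.0429. Counted as raw reads per library or per 1000 miRNA reads the exact p was 0.102. Per 1000 miRNA reads other than ssc-mir-6782, a scale chosen after seeing the data, it stayed below 0.05.

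ssc-mir-451 (ENSSSCG00000019354), the red cell miRNA gene, had 0, 0, 0, 1 and 1 reads in CS replicates 1 to 5 and 1, 0, 0, 4, 0 and 17 reads in Baseline replicates 1 to 6. Replicates 2, 3 and 5 at Baseline were as empty as the CS libraries, and the pig with 17 reads at Baseline has no CS library in use. edgeR gave a log2 fold change of -3.09 (SE 1.52, adjusted p = 1), -1.41 with the pig as a block and -1.01 without Baseline replicate 6. The exact permutation test gave p = 0.457, with mean levels of 0.0128 ± 0.0200 CPM in CS and 0.115 ± 0.228 CPM at Baseline. Over pooled reads the CS to Baseline ratio was 0.0981 with a counting interval of 0.0112–0.399, which leaves out the spread between pigs.

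ssc-mir-24-1 (ENSSSCG00000018214) and ssc-mir-23a (ENSSSCG00000019823) are neighbours of a shared cluster. ssc-mir-24-1 had 5, 1, 19, 1 and 10 reads in CS replicates 1 to 5, against 27, 2, 43, 15, 0 and 6 in Baseline replicates 1 to 6. ssc-mir-23a had 2, 3, 13, 5 and 7 reads in CS, against 22, 4, 36, 20, 0 and 4 at Baseline. In both, Baseline replicates 1, 3 and 4 were high and Baseline replicate 5 had no read, so the groups overlapped. Both were lower in CS in 4 of 5 pigs. Their log2 fold changes were -1.06 (SE 0.999, exact p = 0.303) for ssc-mir-24-1 and -1.05 (SE 0.972, exact p = 0.240) for ssc-mir-23a, each with an edgeR adjusted p of 1.

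ssc-mir-150-1 (ENSSSCG00000027317), the lymphocyte miRNA gene, had 0, 1, 0, 1 and 13 reads in CS replicates 1 to 5, against 9, 1, 16, 2, 0 and 18 in Baseline replicates 1 to 6. CS replicate 5 held 13 of the 15 CS reads. Its log2 fold change was -1.64 (SE 1.30, exact p = 0.260), and -3.51 without CS replicate 5, which then passed the threshold.

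MIR142 (ENSSSCG00000019138), the gene of the pan-hematopoietic miRNA, had 2, 8, 16, 47 and 1 reads in CS replicates 1 to 5, against 9, 0, 8, 20, 0 and 18 in Baseline replicates 1 to 6. CS replicate 4 held 47 of its 74 CS reads and stood at 2.14 CPM, or 0.657 CPM without the TMM factor. It was higher in CS in 4 of 5 pigs. Its log2 fold change was 1.16 (SE 1.14, exact p = 0.600) with all libraries, 0.096 without TMM factors and -0.59 without CS replicate 4. ssc-mir-195 (ENSSSCG00000019457) had 23, 0, 4, 4 and 12 reads in CS replicates 1 to 5, against 0, 15, 8, 2, 8 and 0 in Baseline replicates 1 to 6. It averaged 0.210 ± 0.210 CPM in CS and 0.192 ± 0.231 CPM at Baseline, log2 0.19 (SE 1.19, exact p = 0.907), and log2 -0.36 with the pig as a block. High and low libraries of both genes were found at both time points.

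As a group, 5 of the 7 genes lay below Baseline in CS and 2 above, with a median log2 fold change of -1.06. The median was -0.22 over the 111 other miRNA genes tested and -0.005 over all genes. Of the other miRNA genes, 8 were called higher and 5 lower. The summed level of the 7 genes was 0.794, 0.478, 1.94, 2.82 and 1.35 CPM in CS replicates 1 to 5, against 3.17, 1.06, 4.35, 2.22, 1.46 and 3.18 CPM in Baseline replicates 1 to 6. CS replicate 4, with MIR142, stood highest in CS, and Baseline replicates 2, 4 and 5 were within the CS range.

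The next question was how these genes stood on pVAD support against shock without it. All 7 genes averaged higher on pVAD than in CS, and none passed the threshold. The direction of MIR142 and ssc-mir-195 rested on single libraries: MIR142 turned to -0.73 without pVAD replicate 6 and also below 0 without CS replicate 1, 2, 3 or 5, and ssc-mir-195 turned to -0.10 without pVAD replicate 1. The comparison uses the same 5 CS libraries as the one with Baseline, so low counts in CS enter both. Of all genes tested 2.43% passed the threshold, and 3.2% reached an exact p below 0.05.

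ssc-mir-451 had 1, 14, 1, 6, 4 and 2 reads in pVAD replicates 1 to 6, against 0, 0, 0, 1 and 1 in CS replicates 1 to 5. It was read in 6 of 6 pVAD libraries and 2 of 5 CS libraries, and was higher on pVAD in 5 of 5 pigs, by 1 read in replicates 1 and 3. The level averaged 0.103 ± 0.102 CPM on pVAD (SD, n = 6) and 0.0128 ± 0.0200 CPM in CS (SD, n = 5). The groups overlapped, since pVAD replicates 1 and 3 (0.0182 and 0.0191 CPM) lay below CS replicate 4 (0.0455 CPM). In edgeR the log2 fold change was 2.93 (SE 1.51, adjusted p = 0.999). The exact permutation test gave p = 0.0390, adjusted p = 0.994 over all genes, and the exact test within pigs p = 0.0625, again the smallest that 5 pairs allow. With single libraries left out the exact p ran up to 0.114. The pooled ratio was 10.0 with a counting interval of 2.53–86.8.

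ssc-mir-150-1 had 24, 0, 8, 19, 5 and 22 reads in pVAD replicates 1 to 6, against 0, 1, 0, 1 and 13 in CS replicates 1 to 5. pVAD replicate 2 was empty and CS replicate 5 was within the pVAD range. It averaged 0.349 ± 0.391 CPM on pVAD and 0.0614 ± 0.100 CPM in CS, log2 2.37 (SE 1.33, edgeR adjusted p = 0.999, exact p = 0.110). Without CS replicate 5 it was called, at log2 4.25.

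ssc-mir-223 had 4, 1, 31, 21, 27 and 56 reads in pVAD replicates 1 to 6, against 1, 7, 28, 3 and 30 in CS replicates 1 to 5. Replicates 1 and 2 were low and replicates 3 and 5 high at both time points. Its level was 0.730 ± 1.02 CPM on pVAD and 0.311 ± 0.285 CPM in CS, log2 1.18 (SE 0.96, exact p = 0.569), and pVAD replicate 6, whose pig has no CS library in use, stood at 2.76 CPM, or 1.25 CPM without the TMM factor. Without that library the log2 fold change was 0.05.

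MIR142 had 33, 18, 14, 13, 8 and 38 reads in pVAD replicates 1 to 6, a narrower range than the 1 to 47 reads in CS, and log2 0.08 (SE 1.14, exact p = 0.911) separated the time points. ssc-mir-24-1 had 26, 23, 9, 15, 5 and 11 reads on pVAD, log2 0.98 against CS (SE 0.999, exact p = 0.147). ssc-mir-23a had 6, 5, 19, 9, 11 and 15 reads on pVAD, log2 0.82 against CS (SE 0.97, exact p = 0.357). The pVAD counts of the neighbours ran apart, with ssc-mir-24-1 high in replicates 1 and 2 where ssc-mir-23a was low. ssc-mir-195 had 79, 4, 8, 13, 7 and 8 reads on pVAD, log2 0.94 against CS (SE 1.19, exact p = 0.610), and replicate 1 held 66.4% of its pVAD reads. The pig of replicate 1 also had the most ssc-mir-195 reads in CS, 23, and none at Baseline.

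The median log2 fold change of the 7 genes was 0.98, against 0.59 for the 111 other miRNA genes and 0.02 for all genes. Of the other miRNA genes, 13 were called higher and 1 lower. The summed level of the 7 genes was 3.14, 1.38, 1.72, 1.59, 1.46 and 7.49 CPM in pVAD replicates 1 to 6. pVAD replicates 1 and 6 lay above every CS library, and the other pVAD libraries lay within the CS range of 0.478 to 2.82 CPM.

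**Figure D2:**
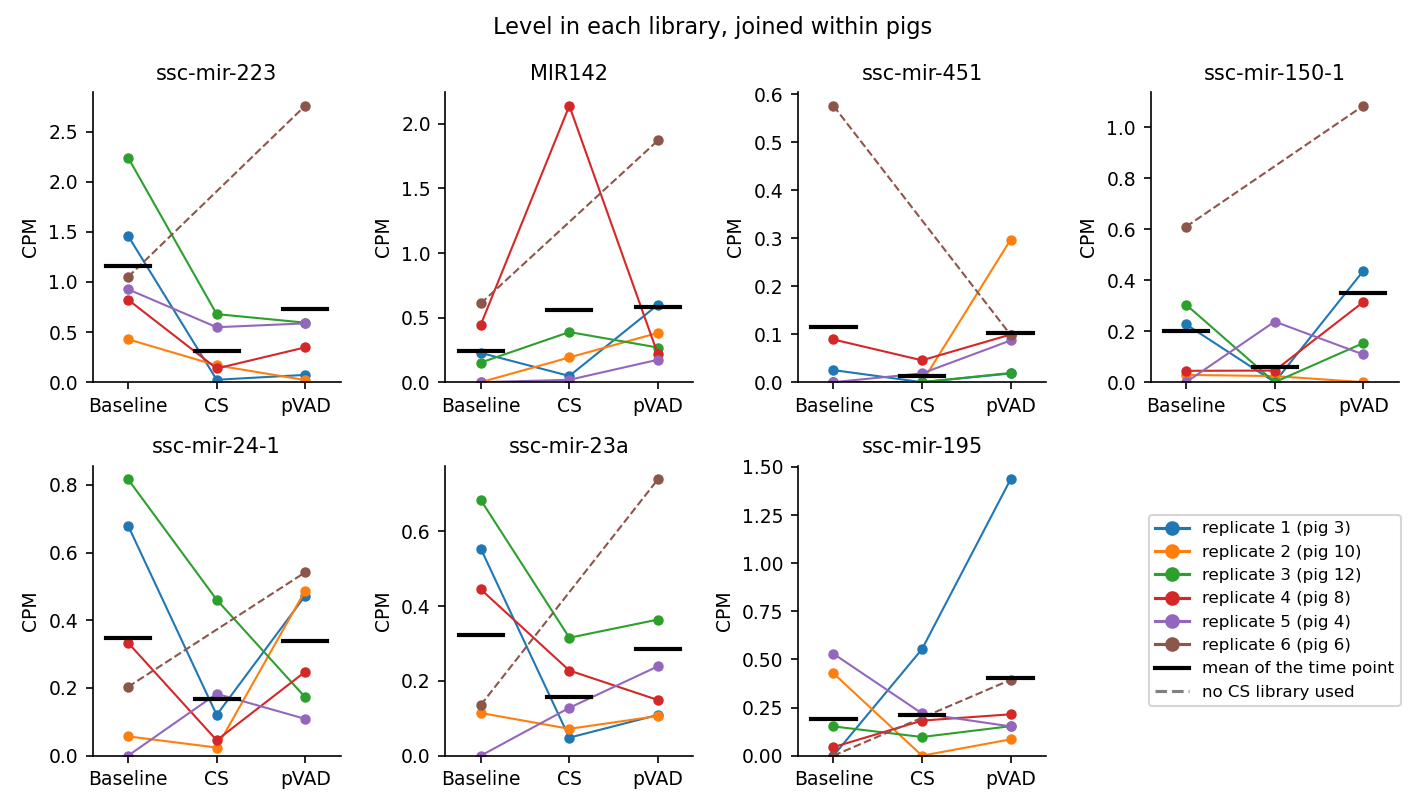
CPM of each gene at Baseline, in CS and on pVAD (x axis), 1 panel per gene, with points joined within each pig, a dashed line for the pig without a CS library in use, and a black bar for the mean of the time point. For ssc-mir-223 all 5 lines go down between Baseline and CS, for ssc-mir-451 all 5 go up between CS and pVAD, and the lines of the other genes cross.

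Between pVAD and Baseline the genes were divided. Of the 7 genes, 3 averaged higher on pVAD and 4 lower, with a median log2 fold change of -0.07, against 0.66 for the other miRNA genes and 0.01 for all genes. None passed the edgeR threshold, which 0.834% of all genes did, and none reached an exact p below 0.05, which 1.98% of all genes did. The edgeR adjusted p was 1 for each member.

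ssc-mir-223 averaged 0.730 ± 1.02 CPM on pVAD and 1.15 ± 0.628 CPM at Baseline, log2 -0.69 (SE 0.89, exact p = 0.409). It was lower on pVAD in 5 of 6 pigs, and higher in the pig of replicate 6. Without pVAD replicate 6 the log2 fold change was -1.83 and the exact p 0.0173. MIR142 had 124 reads on pVAD and 55 at Baseline, was higher on pVAD in 5 of 6 pigs, and averaged 0.5849 ± 0.649 CPM on pVAD against 0.239 ± 0.246 CPM at Baseline, log2 1.24 (SE 1.10, exact p = 0.255), and 0.43 without pVAD replicate 6. ssc-mir-195 averaged 0.406 ± 0.515 CPM on pVAD and 0.192 ± 0.231 CPM at Baseline, log2 1.12 (SE 1.14, exact p = 0.459), and 0.084 without pVAD replicate 1. ssc-mir-150-1 averaged 0.349 ± 0.391 CPM on pVAD and 0.202 ± 0.234 CPM at Baseline, log2 0.74 (SE 1.18, exact p = 0.496), and -0.0097 without pVAD replicate 6.

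The 3 remaining genes had averages near those at Baseline, with directions that turned with single libraries. ssc-mir-24-1 averaged 0.338 ± 0.184 CPM on pVAD and 0.348 ± 0.333 CPM at Baseline, log2 -0.07 (SE 0.92, exact p = 0.950), and 0.44 with pigs blocked. ssc-mir-23a averaged 0.284 ± 0.243 CPM on pVAD and 0.322 ± 0.276 CPM at Baseline, log2 -0.23 (SE 0.90, exact p = 0.794), and 0.13 without Baseline replicate 3. ssc-mir-451 averaged 0.103 ± 0.102 CPM on pVAD and 0.115 ± 0.228 CPM at Baseline, log2 -0.15 (SE 1.23, exact p = 0.978). The Baseline average rested on replicate 6, without which the log2 fold change was 1.92, and with the pig as a block it was 1.16. The medians were 0.0927 CPM on pVAD and 0.0126 CPM at Baseline, and ssc-mir-451 was read in 6 of 6 pVAD libraries and 3 of 6 Baseline libraries. With SEs near 1 log2 unit, changes of several fold in either direction were not detectable with these libraries. The parts of depth and of the spread between pigs in these SEs were not tested.

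**Figure D3:**
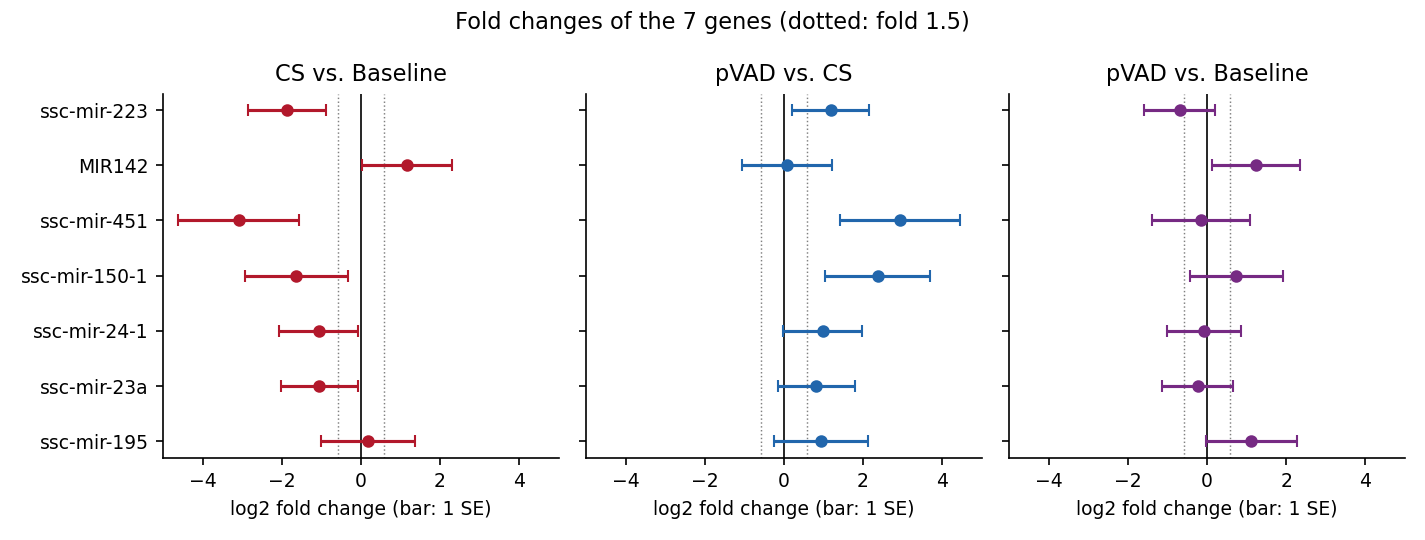
Log2 fold change of each of the 7 genes (rows) in the 3 comparisons of time points (panels), with bars of 1 SE from the edgeR fit and dotted lines at a fold change of 1.5. ssc-mir-451 lies at -3.09 in CS vs. Baseline, where it moves to -1.01 without Baseline replicate 6, and at 2.93 in pVAD vs. CS, and in pVAD vs. CS the values of MIR142 and ssc-mir-195 turn below 0 when a single library is left out.

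By mean CPM over all libraries used, ssc-mir-223, ssc-mir-24-1, ssc-mir-23a and ssc-mir-451 were highest at Baseline, then on pVAD, then in CS. MIR142 and ssc-mir-195 were highest on pVAD, then in CS, then at Baseline, and ssc-mir-150-1 was highest on pVAD, then at Baseline, then in CS. Of neighbours in these orders, only pVAD and CS for ssc-mir-451 had an exact p below 0.05, and several orders rested on single libraries. Without Baseline replicate 6 ssc-mir-451 was higher on pVAD than at Baseline (log2 1.92), without CS replicate 4 MIR142 was lower in CS than at Baseline (-0.59), and ssc-mir-24-1 was higher on pVAD than at Baseline once the pig was a block (0.44). CS and Baseline, the ends of the order for ssc-mir-223, also had an exact p below 0.05, and no other pair of time points did before adjustment.

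The gene neighbourhoods were taken from the RefSeq annotation of Sscrofa11.1, by name only. ssc-mir-24-1 and ssc-mir-23a lie within 10 kb of MIR27A and of the protein-coding gene ZSWIM4. Over the 17 libraries, log2 CPM of ssc-mir-24-1 and ssc-mir-23a had a Pearson r of 0.70 and a Spearman rho of 0.60, the highest Pearson r of any pair of members, whereas ssc-mir-27a, which had 13 Baseline reads, 6 CS reads and 3 pVAD reads, had an r of -0.16 with ssc-mir-23a. The next pair was ssc-mir-223 with ssc-mir-23a (r = 0.59, rho = 0.68). These r values are descriptions over 17 libraries that share pigs, scaling factors and depth. The paralogous genes ssc-mir-24-2, which gives the same mature miR-24, ssc-mir-23b and MIR27B were at 0 reads in every library used, and how reads were shared between such copies was not tested.

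**Figure D4:**
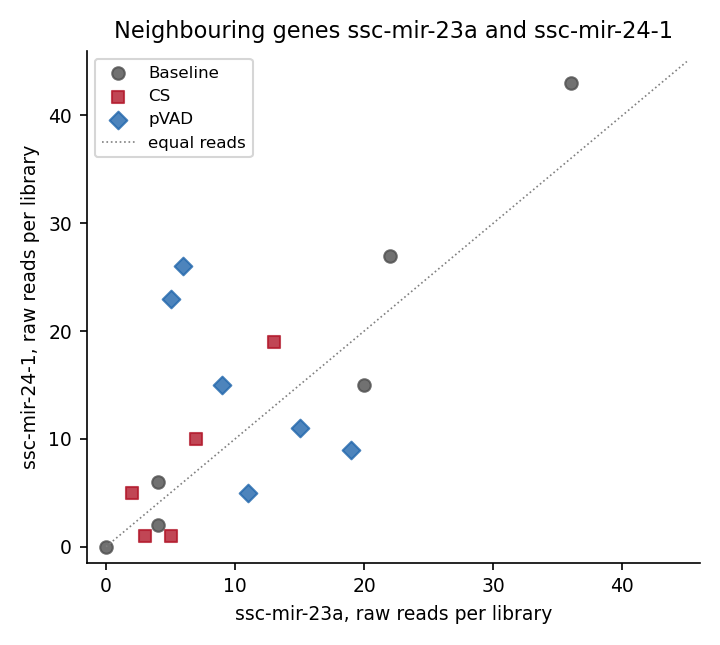
Raw reads of ssc-mir-24-1 (y axis) against ssc-mir-23a (x axis), 1 point per library, with colours and marks for Baseline, CS and pVAD and a dotted line of equal reads. Baseline libraries follow the line up to 36 and 43 reads, and the 2 pVAD libraries farthest above it have 5 and 6 reads of ssc-mir-23a beside 23 and 26 of ssc-mir-24-1.

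ssc-mir-451 overlaps ERAL1, a protein-coding gene for a mitochondrial ribosome assembly factor, and lies within 10 kb of MIR144. ERAL1 averaged 4.11 ± 3.03 CPM at Baseline, 4.73 ± 1.05 CPM in CS and 3.35 ± 0.877 CPM on pVAD. Its log2 CPM had an r of -0.65 with ssc-mir-451, so the library levels of the overlapping genes did not run together. This was not particular to the overlap. ERAL1 also had an r of -0.60 with ssc-mir-150-1, -0.49 with MIR142 and -0.44 with ssc-mir-223. The r was -0.39 with both ssc-mir-23a and ssc-mir-24-1, and 0.35 with ssc-mir-195. ssc-mir-144, which is made from the same primary transcript as ssc-mir-451 in mouse and human, had 3 Baseline reads, 1 CS read and 2 pVAD reads. ssc-mir-195 lies within 10 kb of MIR497, its partner in a shared cluster, and ssc-mir-497 had 14 Baseline reads, 9 CS reads and 11 pVAD reads, all of the pVAD reads in replicate 4 (r = -0.35 with ssc-mir-195). MIR142 lies near TSPOAP1, a gene of an adaptor protein, which averaged 19.4 ± 11.3 CPM at Baseline, 19.3 ± 5.60 CPM in CS and 16.5 ± 6.93 CPM on pVAD. ssc-mir-150-1 lies near FCGRT, the gene of the neonatal Fc receptor, whose log2 CPM had an r of -0.62 with ssc-mir-150-1. FCGRT also had an r of -0.59 with ssc-mir-451, -0.47 with ssc-mir-223 and -0.38 with ssc-mir-23a. Its r was -0.29 with ssc-mir-24-1, -0.28 with MIR142 and 0.55 with ssc-mir-195.

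Of 36 other miRNA genes known from blood cells and found in the table, 20 had no read in the 17 libraries, among them ssc-mir-21, ssc-mir-16-1, ssc-mir-486-2, ssc-mir-126, ssc-mir-191 and ssc-mir-155. Of the 13 tested, 0 were called in CS vs. Baseline, and MIR19B-1, of the miR-17 cluster that promotes cell division, was the only one called in the other comparisons. The share of all genes called was 2.82% in CS vs. Baseline, 2.43% in pVAD vs. CS and 0.834% in pVAD vs. Baseline. MIR19B-1 had 28 reads on pVAD, 22 of them in replicate 1, against 2 in CS (log2 3.14, SE 1.504) and 2 at Baseline (log2 3.23, SE 1.43), with edgeR adjusted p of 0.999 and 1. Without pVAD replicate 1 these were 1.72 and 1.81, and neither call held, nor did they with the pig as a block (2.68 and 2.55). DESeq2 called neither (3.32 and 3.29). Leaving out any of 12 single libraries ended the call against CS, and any of 6 ended the call against Baseline. ssc-mir-146a, induced by inflammatory signals, had 13 Baseline reads, 28 CS reads and 51 pVAD reads, and was read in 3 of 6 Baseline, 4 of 5 CS and 6 of 6 pVAD libraries. The log2 fold change of ssc-mir-146a was 1.40 (SE 1.20) in CS vs. Baseline and 1.76 (SE 1.17) in pVAD vs. Baseline, neither past the threshold. Of the miR-17 cluster and its paralogs, ssc-mir-92a-2 had 20 Baseline reads, 16 CS reads and 38 pVAD reads, and MIR92A-1 had 18 Baseline, 11 CS and 36 pVAD reads. MIR20A had 5 Baseline reads, 10 CS reads and 23 pVAD reads, and ssc-mir-17 itself had 24 Baseline, 6 CS and 19 pVAD reads. ssc-mir-18b had 9 reads at Baseline, 28 in CS, 27 of them in replicate 2, and 5 on pVAD.

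Of the miRNA machinery, 19 of 20 listed genes were tested and 0 were called in any of the 3 comparisons, in which 2.82%, 2.43% and 0.834% of all genes were called. Median log2 fold changes of these genes were 0.13 between CS and Baseline, -0.03 between pVAD and CS and 0.06 between pVAD and Baseline. TNRC6B, a scaffold that joins Argonaute to the machinery of decay, averaged 76.3 ± 5.80 CPM at Baseline, 79.2 ± 16.4 CPM in CS and 77.8 ± 11.7 CPM on pVAD. TNRC6A, of the same family, averaged 65.3 ± 11.99 CPM at Baseline, 63.8 ± 6.53 CPM in CS and 65.5 ± 8.12 CPM on pVAD. The summed level of the 19 machinery genes ran from 426 to 479 CPM at Baseline, 426 to 541 CPM in CS and 447 to 501 CPM on pVAD.

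Transcripts known as targets of these miRNAs in human or mouse were tested for 24 of 28 listed genes. E2F1, a cell cycle transcription factor and a target of miR-223, was the only one called, higher in CS than at Baseline (10.8 ± 10.5 against 4.13 ± 1.59 CPM, log2 1.38, SE 0.45, edgeR adjusted p = 1) and lower on pVAD than in CS (5.26 ± 2.05 against 10.8 ± 10.5 CPM, log2 -1.03, SE 0.45, edgeR adjusted p = 0.999). That is 1 of 24 genes in each of these comparisons, near the background of 2.82% and 2.43% of all genes called. Without CS replicate 1 the E2F1 values were 0.55 and -0.21. The 24 genes had a median log2 fold change of 0.05 between CS and Baseline, -0.04 between pVAD and CS and 0.03 between pVAD and Baseline. NFIA, another target of miR-223, averaged 149 ± 35.5 CPM at Baseline, 142 ± 24.6 CPM in CS and 154 ± 23.3 CPM on pVAD, and IGF1R, a growth factor receptor, averaged 107 ± 12.7 CPM at Baseline, 96.8 ± 6.997 CPM in CS and 103 ± 11.6 CPM on pVAD.

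Markers of the blood cells that make these miRNAs were read at every time point. Of 13 neutrophil and monocyte markers tested, 11 lay above Baseline in CS (median log2 0.51), where ssc-mir-223 was lower, and 11 lay below CS on pVAD (median -0.51). Only SPI1, the myeloid transcription factor, was called, higher in CS (17.7 ± 7.78 against 10.9 ± 3.92 CPM at Baseline, log2 0.69, SE 0.32, edgeR adjusted p = 1). With the pig as a block SPI1 was not called (0.50), and S100A12, a calcium-binding protein of neutrophils, was called lower in CS (log2 -1.19, SE 0.56, edgeR adjusted p = 1), against -0.51 without the block. The summed level of these markers ran from 82.6 to 198 CPM at Baseline, 139 to 266 CPM in CS and 74.9 to 196 CPM on pVAD, led by ITGAM and CSF1R, while ELANE and LYZ were at 0 in every library. Of 16 red cell markers, 0 were called. HBB, the beta chain of hemoglobin, averaged 397 ± 198 CPM at Baseline, 422 ± 172 CPM in CS and 330 ± 212 CPM on pVAD, and the summed red cell level ran from 493.1 to 1163 CPM at Baseline, 586 to 1044 CPM in CS and 423 to 1005 CPM on pVAD, with ALAS2 and HBM at 0.

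Of 16 lymphocyte markers, CD3D of the T cell receptor complex was called higher in CS than at Baseline (log2 1.74, SE 0.60) and lower on pVAD than in CS (log2 -1.42, SE 0.59), and CD8A was called lower in CS (log2 -0.61, SE 0.24), while CD3G and CD79A were at 0. The summed lymphocyte level ran from 242 to 343 CPM at Baseline, 244 to 850 CPM in CS and 256 to 376 CPM on pVAD, led by PAX5 and CD3E. Of 11 platelet markers, TBXA2R, a thromboxane receptor, was called higher in CS than at Baseline (log2 1.03, SE 0.36) and GP9 lower on pVAD than at Baseline (log2 -1.29, SE 0.58), with summed levels of 121 to 163 CPM at Baseline, 112 to 206 CPM in CS and 98.6 to 267 CPM on pVAD and GP1BB at 0. Of 9 endothelial markers KDR, a receptor of vascular growth factor, was called lower in CS than at Baseline (log2 -0.62, SE 0.23), EGFL7 was at 0, and the sums ran from 326 to 485 CPM at Baseline, 346 to 560 CPM in CS and 314 to 504 CPM on pVAD. Each of these edgeR calls had an adjusted p of 0.999 or 1, and each was lost without 1 or more single libraries. Of all genes, 2.82% were called in CS vs. Baseline, 2.43% in pVAD vs. CS and 0.834% in pVAD vs. Baseline. Without CS replicate 4 the CD3D values were 0.19 and 0.14, and without CS replicate 1 TBXA2R was at 0.52, SPI1 at 0.40, KDR at -0.49 and CD8A at -0.54. GP9 was at -0.94 without Baseline replicate 2. With the pig as a block KDR (-0.57), GP9 (-1.34) and the pVAD values of CD3D (-0.89) and E2F1 (-0.55) were not called, while the platelet genes GP1BA (-1.001) and TBXA2R (0.60) were called in pVAD vs. Baseline. The part of these cell markers in the miRNA values was not tested.

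The genes whose log2 CPM ran most like that of each member over the 17 libraries were sought among 13696 genes, for the 6 members read in at least 12 libraries. ssc-mir-223 was nearest to HTR1E (r = 0.88), SLC28A2 (r = 0.81) and FOCAD (r = 0.81). MIR142 was nearest to TTC3 (r = 0.89), USF3 (r = 0.89) and C18orf54 (r = 0.86), and ssc-mir-150-1 to TTC26 (r = 0.83), ZNF567 (r = 0.81) and RUNDC3B (r = 0.80). ssc-mir-24-1 was nearest to CDKN1A (r = 0.82), ENC1 (r = 0.77) and SUSD4 (r = 0.75). For ssc-mir-23a these were NUDT12 (r = 0.76), UBE2T (r = 0.76) and LRRIQ4 (r = 0.75), and for ssc-mir-195 LY6D (r = 0.77), RTL9 (r = 0.75) and LHX2 (r = 0.75). No gene was shared between the lists of 2 members, and with a search over this many genes in 17 libraries the values are given as descriptions only.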

How the data were processed

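Serum RNA of 6 pigs at 3 time points was sequenced from a low-input library of total RNA. Per the labels and the study's methods, the authors trimmed reads with Trim Galore 0.4.4, aligned them with STAR 2.4.2a and counted them per Ensembl gene in R 3.6.0, and they deposited raw counts without normalization. The genome build is not given in the sources used here, so no coordinates are printed, and miRNA sequences are not used here. Columns with fold changes or p-values of the authors were not used.

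Genes with at least 5 reads in total were fitted in R 4.3.3 with edgeR 4.0.16 (TMM factors, quasi-likelihood test, 17 libraries in a single fit, time point only). The study's cut-off was kept: a gene counts as called when its fold change exceeds 1.5 with an unadjusted p under 0.05. Benjamini-Hochberg adjustment ran over all genes. Exact two-sided permutation tests of mean CPM ran over all genes too (smallest p 0.00216), and both scripts were tested on simulated data. log2 CPM had a prior count of 2. Intervals and the floor of 3 reads cover counting error only.

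The sample sheet ties replicates 1 to 6 to pigs 3, 10, 12, 8, 4 and 6. For deviations from the time point means, the median r was 0.135 in 16 same-pig pairs of libraries (-0.249 to 0.604) and -0.0205 in 80 pairs from different animals, and the numbers were taken to pair the libraries.

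Named genes were the 7 members, neighbours within 10 kb, listed miRNA genes with at least 20 reads, up to 4 called and the 2 most abundant genes of each list, and the 3 genes nearest to each member by r with at least 10 reads per library. One neighbouring gene and one listed gene are not reported here. The members and lists were chosen with earlier results of these data known. Alternatives were RLE size factors, no TMM factor, DESeq2 1.42.0, other filters, all 18 libraries, 2 time points only, the pig as a block, removal of mitochondrial and ribosomal RNA genes, adjusted p as the call rule, other scales for the exact test and each library left out. Scaling to miRNA reads other than ssc-mir-6782 was chosen after seeing the data.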

Additional observations from a re-analysis of the deposited data

Results flagged for a closer look

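In 7 of the 21 sets of libraries of a gene at a time point, a single library lay far above the others by Dixon's criterion. That criterion flags about 1 in 20 sets of independent, normally distributed values. The sets here hold many values at or near 0 and share libraries and TMM factors, so that rate does not apply to them. ssc-mir-223 stood at 2.76 CPM in pVAD replicate 6. MIR142 stood at 2.14 CPM in CS replicate 4 and at 1.87 CPM in pVAD replicate 6. ssc-mir-451 stood at 0.297 CPM in pVAD replicate 2 and at 0.576 CPM in Baseline replicate 6. ssc-mir-150-1 stood at 0.238 CPM in CS replicate 5, and ssc-mir-195 at 1.44 CPM in pVAD replicate 1. CS replicate 4 and pVAD replicate 6 are the libraries of lowest TMM factor, 0.307 and 0.454.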

How the results depend on the processing

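Of the 21 log2 fold changes of members, 13 kept their direction under all 26 or 27 alternatives, among them ssc-mir-223, ssc-mir-451, ssc-mir-150-1, ssc-mir-24-1 and ssc-mir-23a in CS vs. Baseline. Some alternatives could hardly turn a direction. The adjusted p rule reuses the same fit, and leaving out a library of the time point not compared barely moves the value. For ssc-mir-223 in CS vs. Baseline it stayed at -1.87 without any single pVAD library. Against 0 members called in that comparison, 2 were called with all 18 libraries (ssc-mir-223 at log2 -1.99 and ssc-mir-451 at -3.10), 1 with DESeq2 (ssc-mir-223 at -1.89) and 0 to 1 with single libraries left out. In pVAD vs. CS 1 was called, ssc-mir-451, without TMM factors (3.49) and with 2 time points only (2.95), and 0 to 1 with single libraries left out. Between pVAD and Baseline 0 were called throughout. Members with an exact p below 0.05 numbered 1 in CS vs. Baseline, and 0 on raw reads and per 1000 miRNA reads. Per 1000 miRNA reads other than ssc-mir-6782 they numbered 1, ssc-mir-223. In pVAD vs. CS they numbered 1, and 0 per 1000 miRNA reads, with or without ssc-mir-6782, and 0 to 1 with libraries left out. In pVAD vs. Baseline they numbered 0, and 1 per 1000 miRNA reads (ssc-mir-223, exact p = 0.0476) or those other than ssc-mir-6782 (exact p = 0.0433), and 0 to 1 with libraries left out. With the replicate block (within pigs) the counts in the comparisons with CS were 0 by construction, since 5 pairs allow no p below 0.0625, which ssc-mir-223 in CS vs. Baseline and ssc-mir-451 in pVAD vs. CS reached. The cause of the other differences was not tested.

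Directions turned as follows. ssc-mir-195 in CS vs. Baseline went to -0.36 with the pig as a block and ran from -0.56 to 0.74 without single libraries. In that comparison its exact p was 0.991 without TMM, 0.920 with 18 libraries and 0.938 within pigs, and 0.500 to 0.976 without single libraries. MIR142 ran from -0.59 to 1.66 (exact p 0.324 to 0.802) in CS vs. Baseline and from -0.73 to 1.83 (exact p 0.233 to 0.971) in pVAD vs. CS, where its exact p was 0.938 within pigs and 0.820 per 1000 miRNA reads other than ssc-mir-6782. ssc-mir-195 ran from -0.10 to 1.69 (exact p 0.390 to 0.897) in pVAD vs. CS. In pVAD vs. Baseline ssc-mir-451 was at 0.066 without TMM and 1.16 with the block, and from -0.83 to 1.92 without single libraries (exact p 0.0801 to 0.996), with an exact p of 0.933 without TMM, 0.565 on log2 CPM, 0.736 on raw reads and 0.784 per 1000 miRNA reads. ssc-mir-24-1 was at 0.44 with the block and from -0.32 to 0.37 without single libraries (exact p 0.545 to 0.968), with 0.595 on log2 CPM. ssc-mir-23a ran from -0.75 to 0.13 (exact p 0.357 to 0.987), with 0.894 on log2 CPM, and ssc-mir-150-1 from -0.0097 to 1.42. The block changed no call of a member in edgeR.

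Over all genes, DESeq2 called 930, 833 and 239 genes in the 3 comparisons, and edgeR without TMM called 313, 366 and 175, with all 18 libraries 993, 950 and 195, and with filterByExpr 586, 480 and 110, against 738, 635 and 218. Without single libraries these ran from 486 to 1066, 388 to 999 and 180 to 422. Leaving out TMM moved the median of all genes to -0.09, 0.30 and 0.21, and all 18 libraries moved it to -0.21 and 0.22 in the comparisons with CS. ssc-mir-451 was not fitted under filterByExpr. Counts of 0 to 118 reads per library limit the precision of each value.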
